A study of Mus musculus with 18 samples.

Results

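The protein disulfide isomerases and endoplasmic reticulum (ER) oxidases are the enzymes that make and rearrange disulfide bonds in the ER. The set described here held 10 genes, chosen by symbol with earlier results of these data known: P4hb, Pdia3, Pdia4, Pdia5, Pdia6, Txndc5, Txndc11, Erp44, Ero1l and Ero1lb. They were 10 of the 20207 genes listed for each sample, and all 10 were among the 12731 genes tested, those for which each of the 18 samples gave 1 read or more.

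Disulfide bonds form in the ER when an oxidized isomerase accepts electrons from a pair of cysteines in a newly made protein. The ERO1 flavoenzymes then reoxidize the isomerase and pass the electrons to molecular oxygen. Several of these genes are known targets of the unfolded protein response (UPR), the program that the sensors Ire1, Perk and Atf6 start when unfolded proteins collect in the ER.

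mRNA-seq was carried out on NIH3T3 cells, a mouse fibroblast line, that carried a destabilizing domain (DD, the L106P mutant of FKBP) fused to superfolder GFP. The cells were a population sorted for high GFP fluorescence and were not described as a clone, and all 6 groups kept the ligand Shield-1 (S1), which holds the DD in its folded state. The control group was grown at 37°C and taken at 0 min. The heat shock (HS) groups were held at 42°C for 45 or 135 min, and a 405 min heat shock was not part of the study because too many cells died. The tunicamycin (Tu) groups received this blocker of N-linked glycosylation at 5 µM for 45, 135 or 405 min. None of the 18 samples was labelled as an untreated or vehicle control at these later times. In comparisons with the 0 min control or between times, treatment, elapsed time and handling therefore cannot be told apart. Each group held 3 samples, and the labels do not say whether these were separate cultures, so p-values measure the spread between these samples only, which may be technical.

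Between 33415592 and 66478268 reads per sample were assigned to genes. The 6 fibroblast markers examined, Col1a1, Col1a2, Col3a1, Vim, Fn1 and S100a4, lay between 39.0 and 4096 RPKM (reads scaled by gene model length and by library size) in all samples, while each of the 9 epithelial, leukocyte and endothelial markers stayed at or below 0.240 RPKM. The treatments showed in their best known targets: at 405 min of tunicamycin Hspa5, the ER chaperone BiP, had gained 3.73 ± 0.15, and at 135 min of heat shock Hsph1, a cytosolic chaperone, had gained 3.33 ± 0.35 (log2 fold change ± SE, edgeR quasi-likelihood test, adjusted p = 4.64e-06 and 0.00792). Along the main axis of spread inside the groups, which held 74.7% of it, HS 45 min replicate 3 and HS 135 min replicate 2 lay at opposite ends, and Ero1l was among the 7.58% of genes with the lowest weights, that is, lower towards HS 135 min replicate 2. Heat shock results of the members and of the listed genes are therefore also given from fits that leave these libraries out, where that moved a call.

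The promoters of the members were searched for letters known from stress-response genes, to show what the members share besides function. RefSeq (GRCm38.p6) gave 14 windows for the 10 genes, each running from 250 bases before to 50 bases after a transcript start. The ER stress element, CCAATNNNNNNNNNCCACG on either strand, is a binding site for Atf6 together with the factor NF-Y. It occurred in 39 of all 32851 windows (0.119%) and in 2 of the member windows, those of Pdia6 (from position -98) and Ero1lb (from position -201, on the opposite strand). The letters TGACGTGG, a core bound by Atf6 and Xbp1, occurred in 222 windows (0.676%) and in 2 member windows, those of Txndc5 (-138) and Txndc11 (-102). By position, this Txndc11 window is at the start of a longer gene model, which was counted in only 2 samples. The Txndc11 window at the start of the model counted in the other 16 samples, chr16:11087931-11088180, held none of the patterns. TGATGNAA, the pattern bound by Atf4 with C/EBP partners, occurred in 1304 windows (3.97%) and in 1 member window, another start of Txndc5. ATTGGNCCACG, another form of the ER stress element, was in 12 windows (0.0365%), and the heat shock element GAANNTTCNNGAA was in 198 (0.603%). Neither lay in a member window. None of these patterns overlapped another in the member windows, and a match of letters is a description, not evidence of a site. The 250 bases before the start are shown for the 4 windows with an ER stress element or TGACGTGG, with the matched letters in capitals, and for Pdia4 and Ero1l, the largest gain and the earliest call among the members, which held no match.
Pdia6, chr12:17266339-17266588, plus strand: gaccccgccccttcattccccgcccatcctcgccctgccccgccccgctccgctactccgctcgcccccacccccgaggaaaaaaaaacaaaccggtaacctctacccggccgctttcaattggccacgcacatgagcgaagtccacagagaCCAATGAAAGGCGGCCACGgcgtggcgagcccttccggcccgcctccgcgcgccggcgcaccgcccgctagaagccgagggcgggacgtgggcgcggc
Ero1lb (Ero1b in RefSeq), chr13:12565633-12565882, plus strand: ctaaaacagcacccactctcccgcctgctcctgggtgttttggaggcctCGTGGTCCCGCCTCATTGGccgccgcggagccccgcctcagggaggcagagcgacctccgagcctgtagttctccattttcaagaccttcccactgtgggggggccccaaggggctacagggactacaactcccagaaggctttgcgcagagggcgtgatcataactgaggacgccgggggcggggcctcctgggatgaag
Txndc5, chr13:38527915-38528164, minus strand: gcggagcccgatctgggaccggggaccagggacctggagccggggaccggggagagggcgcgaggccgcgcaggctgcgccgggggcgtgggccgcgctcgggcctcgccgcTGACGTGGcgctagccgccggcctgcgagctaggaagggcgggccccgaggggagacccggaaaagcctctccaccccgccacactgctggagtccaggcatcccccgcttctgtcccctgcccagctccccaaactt
Txndc11, chr16:11134533-11134782, minus strand: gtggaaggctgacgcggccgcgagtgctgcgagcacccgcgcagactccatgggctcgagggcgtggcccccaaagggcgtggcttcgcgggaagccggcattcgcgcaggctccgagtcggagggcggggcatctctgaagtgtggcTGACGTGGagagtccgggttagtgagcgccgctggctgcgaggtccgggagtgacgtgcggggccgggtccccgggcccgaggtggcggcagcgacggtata
Pdia4, chr6:47813513-47813762, minus strand: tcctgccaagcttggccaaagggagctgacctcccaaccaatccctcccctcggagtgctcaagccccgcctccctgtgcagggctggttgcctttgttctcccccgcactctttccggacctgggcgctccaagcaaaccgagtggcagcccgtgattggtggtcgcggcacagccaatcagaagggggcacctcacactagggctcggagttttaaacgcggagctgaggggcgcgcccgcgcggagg
Ero1l (Ero1a in RefSeq), chr14:45318573-45318822, minus strand: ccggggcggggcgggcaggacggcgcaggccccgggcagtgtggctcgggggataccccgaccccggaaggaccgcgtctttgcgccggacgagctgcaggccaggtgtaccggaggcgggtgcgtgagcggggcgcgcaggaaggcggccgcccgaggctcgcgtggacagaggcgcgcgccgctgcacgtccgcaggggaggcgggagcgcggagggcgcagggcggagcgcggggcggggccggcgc

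In unstressed cells P4hb, Txndc5, Pdia6, Pdia3, Pdia4 and Pdia5 were expressed above both oxidases, while Erp44 and Txndc11 lay near Ero1l. P4hb, the founding protein disulfide isomerase and also a subunit of prolyl 4-hydroxylase, was the most abundant member at 282 ± 57.6 RPKM (SD, n = 3) and made up 37.4 to 38.6% of the summed RPKM of the set. Txndc5, the isomerase ERp46, followed at 144 ± 4.32 RPKM, Pdia6 (P5) at 118 ± 30.4, Pdia3 (ERp57) at 90.4 ± 40.2 and Pdia4 (ERp72) at 64.1 ± 20.6. In this order P4hb stood apart from Txndc5 and Txndc5 apart from Pdia6, whereas the ranges of Pdia6 and Pdia3, and of Pdia3 and Pdia4, overlapped.

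The lower end of the order held the genes with more specialized roles. Pdia5 (PDIr) was at 26.9 ± 4.10 RPKM and stood apart from its neighbours. Erp44, which holds Ero1 proteins back in the ER, was at 7.98 ± 3.40, Txndc11, a membrane protein of the ER with thioredoxin domains, at 7.70 ± 0.83 and Ero1l, the widely expressed ERO1 oxidase, at 6.45 ± 1.71, and these neighbours overlapped. Ero1lb, the ERO1 paralogue best known from the pancreas, was last at 0.364 ± 0.089 RPKM, from 57, 99 and 96 reads in the 3 control samples. Control replicate 1 was the lowest of the 3 for each of the 10 members, for example at 44.0 RPKM of Pdia3 beside 112 and 115.

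**Figure D1:**
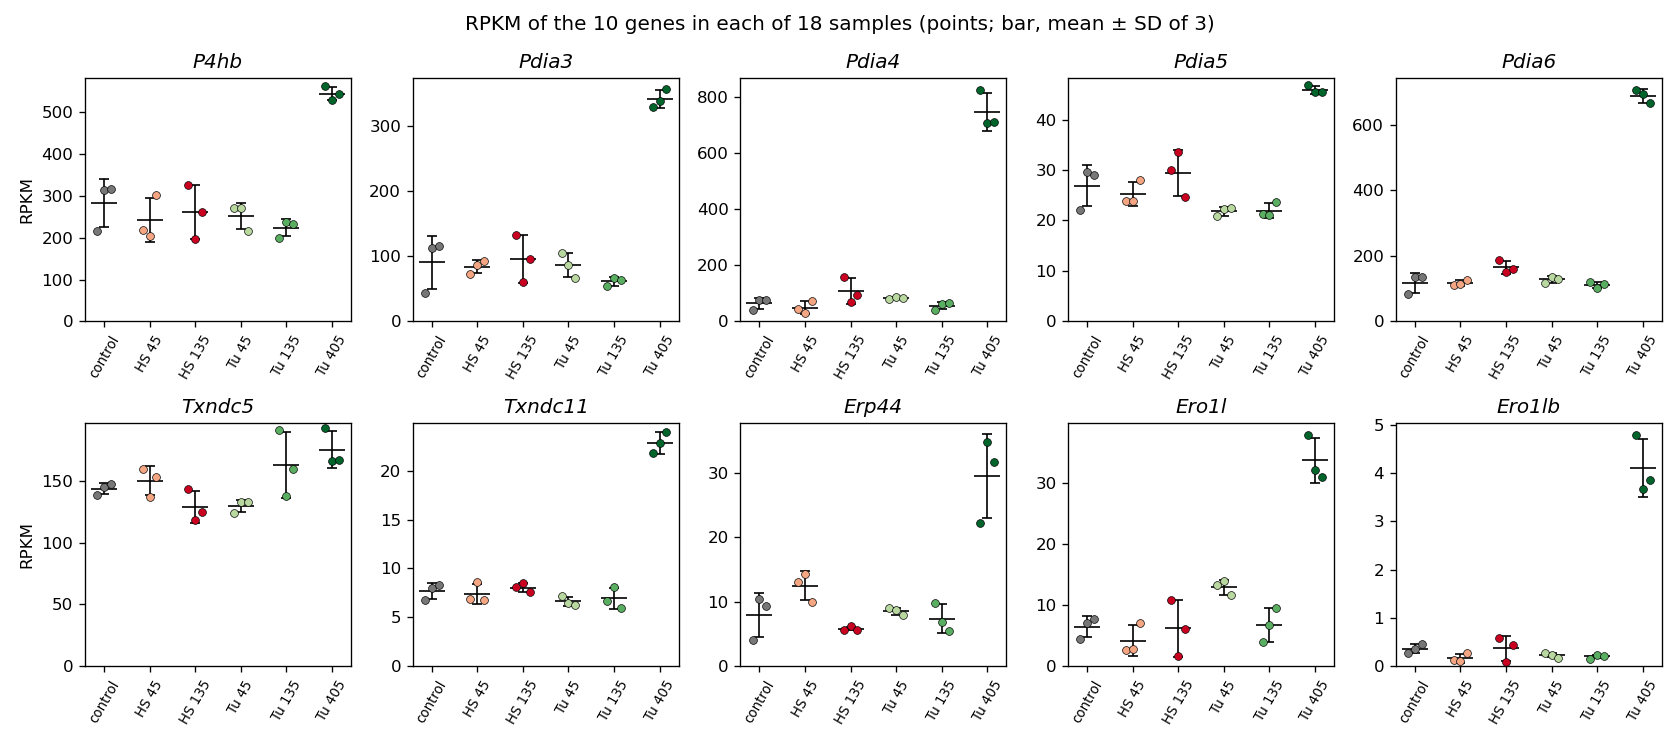
RPKM of each member (vertical axis, from 0, own scale per gene) in the 18 samples, grouped by treatment (horizontal axis, HS and Tu with minutes). Points are samples and bars are mean ± SD of 3. In every panel except that of Txndc5, the 3 points of Tu 405 min lie above all other points.

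The comparison of 405 min of tunicamycin with the control asked how the set stood at the longest exposure. The 5 comparisons against the control share the same 3 control samples. All 10 members rose (edgeR quasi-likelihood test, Benjamini-Hochberg adjusted p under 0.05), where 23.3% of all tested genes were called higher, and no member fell. The median log2 fold change of the members was 2.01, beside -0.012 over all tested genes. In each of the 10, the 3 treated samples lay above the 3 controls in TMM-scaled CPM (counts scaled by library size and composition), which held in this direction for 30.2% of all genes. The summed RPKM of the set went from 747 ± 163 in the control to 2633 ± 101, a ratio of 3.52. In bulk RNA, a change in the amount per cell and a change in the share of cells expressing a gene cannot be told apart.

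Pdia4 and Ero1lb gained most, and their log2 fold changes differed by less than either SE. The control values of Pdia4 were 40.4, 74.6 and 77.4 RPKM in replicates 1 to 3, and those at Tu 405 min were 825, 705 and 709. The groups were far apart, and the log2 fold change was 3.64 ± 0.24 (12.5-fold, adjusted p = 2.95e-05). Pdia6, an isomerase that works next to BiP, stood at 82.4, 135 and 135 RPKM in the controls and at 708, 695 and 666 after 405 min. Its log2 fold change was 2.65 ± 0.19 (6.28-fold, adjusted p = 4.08e-05). At 405 min these 2 genes had passed P4hb: Pdia4 and Pdia6, whose ranges overlapped, were the most abundant members, and the range of P4hb (529 to 562 RPKM) lay below both.

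The other abundant isomerases rose less. Pdia3, the isomerase that calreticulin and calnexin recruit to glycoproteins, went from 44.0, 112 and 115 RPKM to 329, 338 and 357, a log2 fold change of 2.02 ± 0.31 (adjusted p = 0.00128). P4hb went from 216, 315 and 316 RPKM to 562, 529 and 542, a log2 fold change of 1.04 ± 0.16 (adjusted p = 0.00117). Neither pair of groups overlapped. Pdia5 rose by 0.87 ± 0.13 on the log2 scale (1.82-fold, adjusted p = 0.000959), from 22.2 to 29.5 RPKM in the controls to 45.5 to 46.9.

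Txndc5 changed least and its call was not stable. It stood at 139, 145 and 147 RPKM in the controls and at 192, 166 and 167 at Tu 405 min. The groups did not overlap, and the log2 fold change was 0.37 ± 0.12 (1.29-fold, adjusted p = 0.0299). Leaving out control replicate 2 or 3 or any 1 of the Tu 405 min samples ended the call, with adjusted p between 0.0758 and 0.111 and log2 fold changes between 0.30 and 0.39. The shared fit of all 6 groups gave an adjusted p of 0.0898, total counts without TMM gave 0.0903 and limma on log2(RPKM + 1) gave 0.0651.

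Among the less abundant members, Erp44 stood at 4.10, 10.4 and 9.41 RPKM in the controls and at 22.3, 34.8 and 31.7 at 405 min, a log2 fold change of 2.0 ± 0.33 (adjusted p = 0.0017). Txndc11 went from 6.75, 8.05 and 8.30 RPKM to 21.8, 22.8 and 23.9, a log2 fold change of 1.66 ± 0.13 (adjusted p = 6.11e-05). Both genes were separated from the controls in every sample.

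Both oxidases rose. Ero1l went from 4.51, 7.15 and 7.70 RPKM in the controls to 37.9, 32.1 and 31.0, a log2 fold change of 2.48 ± 0.19 (5.57-fold, adjusted p = 5.04e-05). Ero1lb went from 0.277, 0.361 and 0.455 RPKM to 4.79, 3.67 and 3.86, a log2 fold change of 3.58 ± 0.20 (12-fold, adjusted p = 1.43e-05). In reads, Ero1lb moved from 57 to 99 per control sample to 1103 to 1528 per treated sample. It was still the least abundant member after this change.

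**Figure D2:**
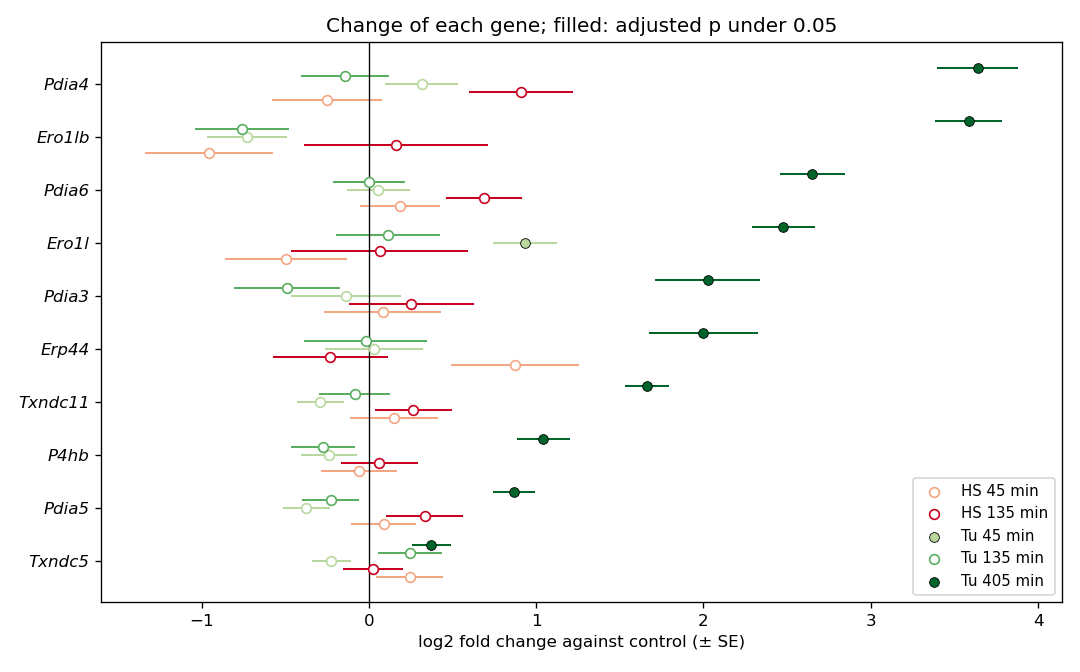
Log2 fold change against the control (horizontal axis, ± SE) of each member (vertical axis, ordered by its change at Tu 405 min) for the 5 treatments. Filled points passed an adjusted p of 0.05; at Tu 45 min, Txndc11 is drawn with the length-corrected value of -0.29. The Tu 405 min points run from 0.37 for Txndc5 to 3.64 for Pdia4, and Ero1l at Tu 45 min is the only other filled point.

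The makeup of the set changed with its sum. Per length, Pdia4 held 7.22 to 9.15% of the summed RPKM in the controls and 27.4 to 30.01% at Tu 405 min, and Pdia6 moved from 14.7 to 16.2% to 25.7 to 27.0%. The share of P4hb went from 37.4 to 38.6% to 20.4 to 21.0%, and that of Txndc5 from 17.3 to 24.8% to 6.46 to 7.00%. None of these ranges overlapped between the groups. The ratio of Pdia4 to P4hb RPKM was 0.223 ± 0.031 in the controls and 1.37 ± 0.087 at 405 min.

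**Figure D3:**
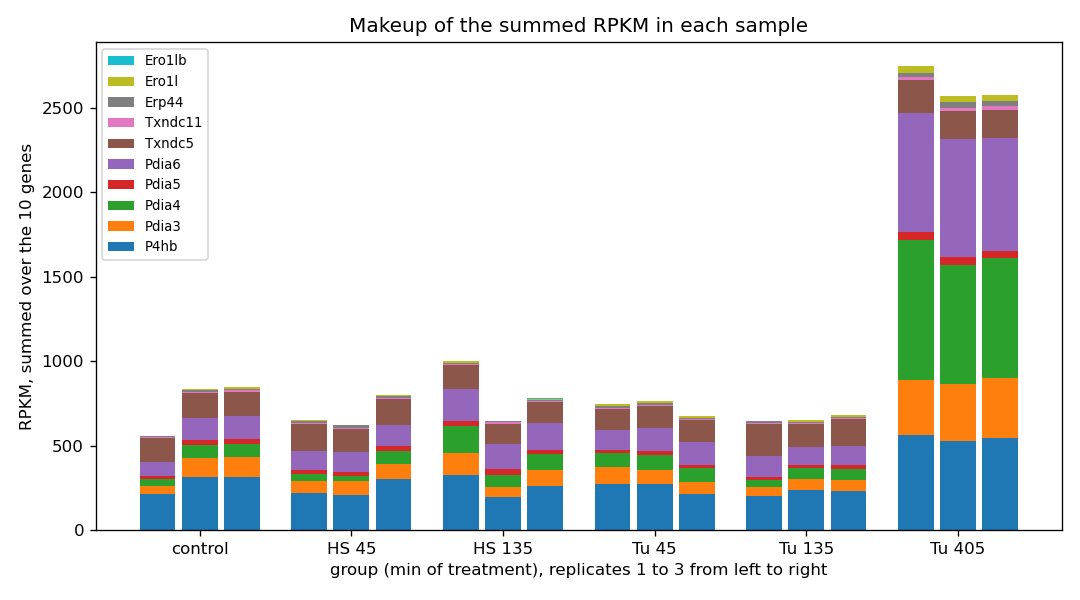
Summed RPKM of the 10 members (vertical axis) in each of the 18 samples (horizontal axis, replicates 1 to 3 of each group), stacked by gene. The bars of Tu 405 min reach 2573 to 2750 RPKM and those of all other samples stay between 559 and 1002.

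The earlier tunicamycin times asked when the change begins. At 45 min 1 of the 10 members was called higher, Ero1l, where 4.01% of all genes were, and no member was called lower. Ero1l was at 13.3, 13.96 and 11.6 RPKM in replicates 1 to 3, above the controls in each sample, with a log2 fold change of 0.93 ± 0.19 (1.91-fold, adjusted p = 0.0351). The call rested on the full set of samples. Of the 6 fits that left out 1 library, it passed only without control replicate 1 (0.75, adjusted p = 0.0106), and in the other 5 the log2 fold change was 0.89 to 1.06 with adjusted p between 0.0851 and 0.171. The shared fit of all 6 groups gave 0.92 with an adjusted p of 0.292. The call held with DESeq2 (adjusted p = 0.0006, in a test that called 1843 genes). It also held narrowly with total counts without TMM (adjusted p = 0.0304) and limma on log2(RPKM + 1) (adjusted p = 0.0383).

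The paralogue Ero1lb lay on the other side of the control at 45 min. It was at 0.267, 0.244 and 0.182 RPKM, below each control, and the log2 fold change of -0.73 ± 0.24 missed the threshold (adjusted p = 0.111). Pdia5 was at 20.8, 22.3 and 22.4 RPKM, overlapping the control range of 22.2 to 29.5 RPKM but below each control in TMM-scaled CPM (-0.37 ± 0.14, adjusted p = 0.144). Without control replicate 1, both were called lower (Ero1lb -0.86, adjusted p = 0.0349 and Pdia5 -0.47, adjusted p = 0.0245), in a fit that called 19.6% of all genes. Pdia4 was at 81.3, 86.3 and 83.3 RPKM, above each control, with a log2 fold change of 0.32 ± 0.22 and an adjusted p of 0.411.

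The ratio of the ERO1 genes moved in both directions over the tunicamycin series. Ero1l exceeded Ero1lb per length by 16.3 to 19.8 times in the controls, by 50.02 to 63.9 times at Tu 45 min, by 24.3 to 44.4 times at 135 min and by 7.92 to 8.74 times at 405 min. The ranges at 45 and 135 min lay above the control range and that at 405 min below it. At HS 45 min the ratio was 20.2 to 27.6, also above the control range. The 8 isomerase-family genes together exceeded the ERO1 genes by 103 to 116 times in the controls, by 52.8 to 56.5 times at 45 min and by 63.4 to 72.9 times at 405 min. At Tu 135 min this ratio spread from 68.7 to 157. With 3 samples a group, an exact permutation test of these ratios cannot give a two-sided p below 0.1, so none is given.

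**Figure D4:**
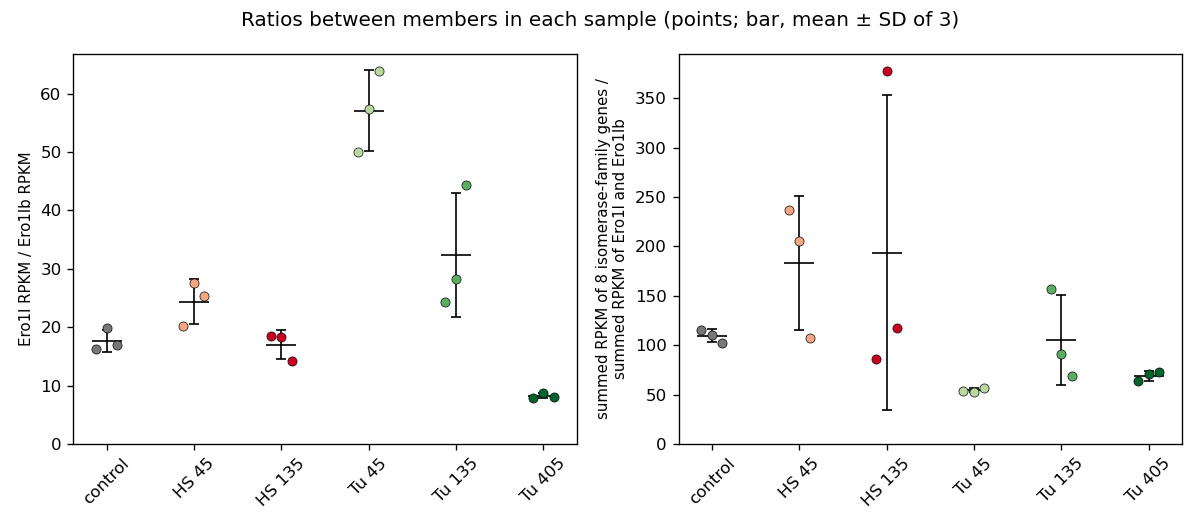
Ratio of Ero1l to Ero1lb RPKM (left, vertical axis) and of the summed RPKM of the 8 isomerase-family genes to that of both ERO1 genes (right, vertical axis) by group (horizontal axes). Points are samples and bars are mean ± SD of 3. The left ratio is highest at Tu 45 min (50.02 to 63.9) and lowest at Tu 405 min (7.92 to 8.74).

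At 135 min of tunicamycin no member was called in either direction, where 0.134% of all genes were called. At an unadjusted p under 0.05 the quasi-likelihood test had 0 members higher and 1 lower, beside 18.6% of all genes, and DESeq2 called 0 members and 5.02% of all genes. The member with that p was Ero1lb, at 0.162, 0.240 and 0.215 RPKM and below each control (-0.76 ± 0.28, adjusted p = 0.215). Ero1l lay on both sides of the control range of 4.51 to 7.70 RPKM, at 3.94, 6.81 and 9.53 (0.11 ± 0.31, adjusted p = 0.878). The summed RPKM was 647 to 680, beside 559 to 846 in the controls.

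Set directly against 45 min, the 135 min samples had no member called (0.291% of all genes were called), with 1 member higher and 2 lower at an unadjusted p under 0.05, beside 15.8% of all genes. DESeq2 called 0 members and 4.89% of all genes. Ero1l lay below each 45 min sample, at a log2 difference of -0.82 ± 0.27 (adjusted p = 0.226), and so did Pdia4 at -0.46 ± 0.16 (adjusted p = 0.247). Txndc5 lay above each, at 191, 138 and 160 RPKM beside 124 to 133, with a log2 difference of 0.47 ± 0.18 (adjusted p = 0.264).

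From 135 to 405 min, 9 of the 10 members rose, where 21.4% of all genes were called higher, and none fell. Ero1lb rose by 4.32 ± 0.20 on the log2 scale (adjusted p = 2.61e-05), Pdia4 by 3.76 ± 0.19 (adjusted p = 3.19e-05), Pdia6 by 2.62 ± 0.16 (adjusted p = 4.82e-05) and Pdia3 by 2.48 ± 0.14 (adjusted p = 3.59e-05). Ero1l, Erp44, Txndc11, P4hb and Pdia5 rose by between 1.07 and 2.34. Txndc5 was the member not called, with a log2 difference of 0.09 ± 0.18 (adjusted p = 0.696). Its 135 min replicate 1 (191 RPKM) lay within the 405 min range, and without that library the difference was 0.29 with an adjusted p of 0.0329.

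The read count of Txndc11 was not comparable across all samples. Genes are represented by 1 transcript model per file. For Txndc11 this was chr16:11075004-11088023 (mm9) in 16 files, with a median of 1486 bases implied by count and RPKM. In Tu 45 min replicates 2 and 3 it was chr16:11075004-11134625, with an implied 3641 and 3684 bases. Read counts there were 1566 and 1024 beside 625 in replicate 1, while RPKM was 6.47, 6.31 and 7.15, near the control range of 6.75 to 8.30. The counts gave a log2 fold change of 0.66 at Tu 45 min against the control, and with the model length as an offset, a fit added after the data were seen, it was -0.29 (adjusted p = 0.241). From 45 to 135 min the corresponding values were -0.74 and 0.21. The other 9 members had the same coordinates in all 18 files, and the 405 min comparisons above are not touched.

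The heat shock comparisons asked whether a stress that unfolds proteins throughout the cell moves these genes. At 45 min no gene at all was called by the quasi-likelihood test (0% of all genes, with 2480 genes or 19.5% at an unadjusted p under 0.05), and DESeq2 called 451 genes (3.54%) and 0 members. At an unadjusted p under 0.05 the members had 0 higher and 1 lower, Ero1lb. Ero1lb was at 0.129, 0.106 and 0.279 RPKM (-0.95 ± 0.38, adjusted p = 0.246) and Ero1l at 2.61, 2.91 and 7.08 (-0.50 ± 0.36, adjusted p = 0.394). Erp44 was at 13.2, 14.4 and 10.03 RPKM (0.87 ± 0.38, adjusted p = 0.257). In each of these genes replicate 3 lay nearest to the controls, and without it all 3 were called: Erp44 at 1.09 (adjusted p = 0.0388), Ero1l at -0.93 (adjusted p = 0.0236) and Ero1lb at -1.34 (adjusted p = 0.0125). That fit called 45.4% of all genes.

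At 135 min of heat shock no member was called, where 7.39% of all genes were called in either direction. At an unadjusted p under 0.05 there were 2 members higher and 0 lower, beside 29.7% of all genes, and DESeq2 called 0 members and 17% of all genes. The members with that p were Pdia4 and Pdia6. Pdia4 was at 158, 70.7 and 94.8 RPKM (0.91 ± 0.31, adjusted p = 0.104) and Pdia6 at 188, 150 and 160 (0.69 ± 0.23, adjusted p = 0.0975). In TMM-scaled CPM, these 2 genes and Txndc11 lay above the controls in every sample, which held in this direction for 18.1% of all genes. Without HS 135 min replicate 2, Pdia4 passed at 1.11 (adjusted p = 0.0444, 9.71% of all genes called). In the shared fit of all 6 groups, which called 25.5% of all genes, Pdia4 (adjusted p = 0.0223) and Pdia6 (adjusted p = 0.00763) both passed.

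Ero1l spread most widely under heat. Its 3 values at HS 135 min were 10.9, 1.62 and 6.14 RPKM, on both sides of the controls, and Ero1lb followed them sample by sample at 0.590, 0.088 and 0.435. The low values belonged to replicate 2, from 340 reads of Ero1l and 25 of Ero1lb. The ratio of the ERO1 genes stayed between 14.1 and 18.5 in these samples, and leaving out 1 library at a time moved the log2 fold change of Ero1l between -0.49 and 0.53.

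Heat shock and tunicamycin were also compared with each other at 135 min. No member was called (2.12% of all genes were), while 4 members were higher and 0 lower at an unadjusted p under 0.05, which 20% of all genes passed in either direction. These were Pdia4 (1.05 ± 0.27, adjusted p = 0.0947), Pdia6 (0.68 ± 0.17, adjusted p = 0.0916), Pdia3 (0.73 ± 0.24, adjusted p = 0.15) and Pdia5 (0.56 ± 0.21, adjusted p = 0.207). Against the control, HS 135 min gave 0.91 for Pdia4, 0.69 for Pdia6, 0.25 for Pdia3 and 0.33 for Pdia5. Tu 135 min gave -0.14, 0.00023, -0.49 and -0.23 for the same genes, and none of these values was called. DESeq2, which called 9.87% of all genes, called Pdia4 and Pdia6 higher under heat with adjusted p of 0.016 and 0.0203, and the shared fit, which called 13.9%, added Pdia5 at 0.0181.

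Other genes of the pathway were read from lists set out beside the members. Of 17 further thiol oxidoreductases of the ER, 12 could be tested. At Tu 405 min 4 rose and 1 fell, where 23.3% of all genes were called higher and 23.5% lower. The median log2 fold change of the list was 0.29. Creld2, a secreted isomerase-like protein, rose by 5.13 ± 0.15 (adjusted p = 1.18e-06), Creld1 by 1.74 ± 0.23 (adjusted p = 0.000664) and Erp29, a redox-inactive relative, by 1.11 ± 0.15 (adjusted p = 0.000652). Tmx4, a membrane-bound member of the family, fell by 0.89 ± 0.17 (log2 fold change -0.89, adjusted p = 0.00376). The fifth called gene was Selm, a selenoprotein, at 0.91 ± 0.17. Tmx1, Tmx3 and Dnajc10 were among the 7 that were not called, at -0.17, 0.23 and -0.04. Pdia2, Pdilt, Erp27, Agr2 and Agr3 did not have a read in every sample and were not tested. At HS 135 min Creld1 (2.26 ± 0.37, adjusted p = 0.0199) and Creld2 (0.93 ± 0.20, adjusted p = 0.0339) were the 2 genes of this list called higher, where 7.39% of all genes were called in either direction. Both calls held without HS 135 min replicate 1 or 2, and Creld1's also without control replicate 1, but each ended when any other library was left out, with adjusted p of up to 0.118 for Creld1 and 0.165 for Creld2.

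Enzymes that oxidize thiols by other routes formed the next list. All 7 were tested, and at Tu 405 min 3 rose, where 23.3% of all genes were called higher. These were Qsox2, a sulfhydryl oxidase, by 0.64 ± 0.12, and the vitamin K epoxide reductases Vkorc1 by 0.57 ± 0.19 and Vkorc1l1 by 0.54 ± 0.14. Prdx4, Gpx7 and Gpx8, peroxidases that use hydrogen peroxide to oxidize isomerases, were not called at 0.30, -0.28 and -0.47. The median of the list was 0.30. The call of Vkorc1 ended without control replicate 2 or 3 or Tu 405 min replicate 2 or 3 (0.40 to 0.61, adjusted p up to 0.169), and that of Vkorc1l1 without control replicate 2 or 3 or Tu 405 min replicate 3 (adjusted p up to 0.0797). At Tu 45 min Gpx7 was called lower (-0.62 ± 0.12, adjusted p = 0.0311), a call that held only without control replicate 1 among the 6 fits that left out 1 library, with adjusted p of up to 0.186 in the others. From 135 to 405 min of tunicamycin 2 of the 7 were called higher, Prdx4 and Vkorc1l1, where 21.4% of all genes were. The call of Prdx4 held in all 6 quasi-likelihood fits that left out 1 library (0.92 to 1.29, adjusted p up to 0.0231). That of Vkorc1l1 held in 3 of them (adjusted p up to 0.0989).

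Of the 9 partners of the members tested at Tu 405 min, 3 rose and 2 fell, where 23.3% of all genes were called higher and 23.5% lower. Those that rose were the chaperones Hspa5 (3.73 ± 0.15), Hsp90b1 (2.90 ± 0.39) and Calr (2.29 ± 0.18), the lectin that works with Pdia3. Those that fell were P4ha1 (-0.68 ± 0.15, adjusted p = 0.00602) and P4ha3 (-0.49 ± 0.14, adjusted p = 0.0235), catalytic subunits of the prolyl 4-hydroxylase to which P4hb belongs. The call of P4ha3 ended without control replicate 3 or Tu 405 min replicate 1 or 3 (adjusted p up to 0.106). P4ha2 was at 0.14 and Mttp, another partner of P4hb, at -0.09, and neither was called. At HS 135 min P4ha2 (1.52 ± 0.27, adjusted p = 0.0224) and Hspa5 (0.96 ± 0.20, adjusted p = 0.0312) were called higher, where 7.39% of all genes were called in either direction. Each of these 2 calls held without HS 135 min replicate 1 or 2 and ended when HS 135 min replicate 3 or any control was left out, with adjusted p of up to 0.118 and 0.177.

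The readouts of UPR signalling were called in more comparisons than the members were. All 9 rose at Tu 405 min (median log2 fold change 2.18), where 23.3% of all genes were called higher. The largest gains were those of Ddit3 (5.21 ± 0.19), which encodes the transcription factor CHOP, Sdf2l1 (5.08 ± 0.19) and Herpud1 (4.76 ± 0.17). At Tu 45 min 5 of the 9 were called higher, beside Ero1l alone among the members and 4.01% of all genes. Among the 5 were Ddit3 (2.93 ± 0.19), Herpud1 (2.26 ± 0.14), Atf4 (0.76 ± 0.12) and Xbp1 (0.71 ± 0.13). The calls of Ddit3 and Herpud1 held in all 6 fits that left out 1 library, while those of Atf4 and Xbp1 held only without control replicate 1 or Tu 45 min replicate 3 (adjusted p up to 0.1 and 0.158 in the others). At Tu 135 min 0 of the 9 were called against the control, where 0.134% of all genes were (median 0.086). From 45 to 135 min the median was -0.80, and 1 readout, Herpud1, was called lower, where 0.291% of all genes were called. That call held in 1 of 6 fits that left out 1 library (-1.62 to -1.35). At HS 135 min 4 of the 9 rose, where 7.39% of all genes were called in either direction. These were Herpud1 (2.66 ± 0.22), Ddit3 (2.32 ± 0.29), Atf4 (1.57 ± 0.26) and Sdf2l1 (1.56 ± 0.24). The call of Herpud1 held without any 1 library, and the other 3 held without HS 135 min replicate 1 or 2 or control replicate 1 and ended without any of the other libraries (adjusted p up to 0.12). The same 3 libraries could be left out for Hsph1, whose adjusted p was up to 0.0664 without the others.

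Genes outside the set with the most similar profile were ranked by Pearson's r over the 18 samples, on log2(CPM + 1). The Tu 405 min samples stand apart from the other 15, so these values mostly describe that group and are given without a test. For the mean of the members the closest genes were Sec11c, a signal peptidase subunit (r = 0.988), Nucb2 (0.985), the BiP co-chaperone Dnajb11 (0.982), Calr (0.979) and Creld2 (0.977). For Ero1l they were Dusp11 (0.976), Gfpt2 (0.971) and the asparaginyl-tRNA synthetase gene Nars (0.960). For Ero1lb they were Dnajc3 (0.977), Edem1 (0.977) and Sel1l (0.970), the last of which encodes a part of the ER-associated degradation machinery. The lists closest to the ERO1 paralogues had no gene in common, but lists this short cannot show whether their profiles differ.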

How the data were processed

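Poly(A) RNA of 18 samples was sequenced by the authors. The paper names a modified Illumina protocol and also a NuGEN kit for making the libraries. It does not say which samples received which, so an effect of the library preparation cannot be told apart. Reads were aligned to mm9 and counted on RefSeq genes; the aligner, the counter and the use of strand are not given in the sources used here, so reads of overlapping antisense genes cannot be told apart. The authors assigned reads to genes and deposited an estimated count per gene and sample, of which 17.7 to 23.2% of low values are not whole. From these counts the authors derived RPKM, scaled by model length and library size. The authors also deposited a score (Z score) made by centring and scaling RPKM within a sample, and a signal made by dividing RPKM by its root mean square. The last 2 columns only rescale RPKM within a sample and were not used. In 741 genes, 1 of them a member, the model counted differed between files.

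Estimated counts were rounded and tested with edgeR 4.0.16 (R 4.3.3; TMM, quasi-likelihood, each comparison on its own 6 samples, 2-sided, Benjamini-Hochberg over 12731 genes with at least 1 read in all 18 samples, adjusted p under 0.05). SE is the absolute log2 fold change divided by the square root of F. Levels between genes use RPKM. At these depths 3 reads, the limit a count of 0 allows, correspond to 0.0451 to 0.0898 CPM. No 2 replicates agreed within sampling noise (chi-square per degree of freedom at least 16.1). The alternatives were other filters, DESeq2 1.42.0, other scalings, a shared fit, a replicate block, limma 3.58.1 on log2(RPKM + 1) and log2(RPKM + 0.1), a fold limit and leaving out each library; a length offset was added after the data were seen. Every pair of same-numbered samples deviated together only for Tu 135 min and the control (correlations 0.299 to 0.342, no label gives a reason), where the block called 0 genes and the fit without it 17.

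The members and the 4 gene lists were chosen with earlier results of these data known. Named genes were all members, at most the 4 largest called changes per list and comparison, and the genes closest in profile; uncalled list genes and Selm are named beyond that rule. Protein sequences were not used here.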

Additional observations from a re-analysis of the deposited data

Results flagged for a closer look

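The step from 135 to 405 min of tunicamycin differed from 0 by its own test in 9 members, as log2 fold changes with edgeR's quasi-likelihood test: Ero1lb 4.32, Pdia4 3.76, Pdia6 2.62, Pdia3 2.48, Ero1l 2.34, Erp44 1.98, Txndc11 1.72, P4hb 1.29 and Pdia5 1.07. In each of the 9, all 3 samples at 405 min lay above all 3 at 135 min. Leaving out any of the 6 libraries ended none of these calls. Groups of 3 samples are too small for a test of single outlying samples, so none was made.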

How the results depend on the processing

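All 10 members stayed higher at Tu 405 min than in the control, and 9 higher than at 135 min, in direction, under every alternative run, except that Txndc5 from 135 to 405 min ranged from -0.031 to 0.29 as libraries were left out. At least 9 members stayed called against the control in the other settings, and a fold limit of 1 on the log2 scale left 8. Of 1280 recomputed member fold changes, 1174 kept direction and call. The counts of calls that moved were these. Higher at Tu 45 min, 1 member in the report, was 0 with a log2 limit of 1, in the shared fit and under the replicate block, and 0 to 1 as libraries were left out, while the count lower ranged from 0 to 2. Without Tu 45 min replicate 1, the 1 member called was Txndc11 and not Ero1l (0.96, quasi-likelihood test, adjusted p = 0.0489). That fit used the read counts of Txndc11 on the longer gene model in replicates 2 and 3, without the length offset. Higher at HS 135 min, 0 in the report, was 2 in the shared fit and 0 to 1 without 1 library. HS 45 min ranged from 0 to 1 higher and from 0 to 2 lower. Higher under HS than Tu at 135 min, 0 in the report, was 2 by DESeq2 and 3 in the shared fit. The ratio of summed RPKM to the control ranged, without 1 library, from 0.868 to 1.05 at Tu 45 min, 0.783 to 0.944 at Tu 135 min and 3.13 to 3.77 at Tu 405 min, and at Tu 135 min was 0.912 from TMM-scaled counts, with 0.881 in the report.

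The fold changes that turned direction were not called and mostly near 0, and the cause was not tested except for Txndc11. Total counts without TMM moved the median of all genes to -0.19 at HS 45 min and -0.19 at HS 135 min (-0.032 and -0.020 with TMM). They gave -0.095 for Pdia3, -0.078 for Pdia5 and -0.036 for Txndc11 at HS 45 min, -0.096 for P4hb, -0.14 for Txndc5 and -0.040 for Ero1l at HS 135 min, and -0.014 for Pdia6 at Tu 135 min. With limma on log2(RPKM + 1) and log2(RPKM + 0.1), HS 45 min gave -0.080 and -0.082 for Pdia5 and -0.047 and -0.053 for Txndc11. HS 135 min gave -0.12 and -0.12 for P4hb, -0.16 and -0.17 for Txndc5, -0.27 and -0.38 for Ero1l and -0.0088 and -0.16 for Ero1lb. Tu 45 min gave 0.031 and 0.033 for Pdia3 and -0.18 and -0.21 for Txndc11, Tu 135 min gave -0.037 and -0.037 for Pdia6, and Tu 135 against 45 min gave 0.047 and 0.052 for Txndc11. The length offset gave Txndc11 -0.29 at Tu 45 min and 0.21 from 45 to 135 min, by its construction. Pdia6 at Tu 135 min, 0.00023 in the report's fit, was -0.0078 with at least 1 read in 1 sample, -0.0056 by DESeq2, -0.0056 with its size factors and -0.014 in the shared fit. As 1 library was left out, HS 45 min ranged from -0.19 to 0.019 for P4hb, -0.23 to 0.28 for Pdia3, -0.0059 to 0.15 for Pdia5 and -0.048 to 0.30 for Txndc11. HS 135 min ranged from -0.49 to 0.53 for Ero1l, -0.23 to 0.63 for Ero1lb, -0.53 to 0.0072 for Erp44, -0.064 to 0.20 for P4hb and -0.045 to 0.48 for Pdia3. Tu 45 min ranged from -0.27 to 0.27 for Erp44, -0.46 to 0.054 for Pdia3 and -0.13 to 0.16 for Pdia6. Tu 135 min ranged from -0.18 to 0.36 for Ero1l, -0.34 to 0.22 for Erp44, -0.37 to 0.010 for Pdia4, -0.18 to 0.10 for Pdia6 and -0.20 to 0.037 for Txndc11. Tu 135 against 45 min ranged from -0.15 to 0.088 for Ero1lb, -0.36 to 0.15 for Erp44, -0.11 to 0.0092 for P4hb and -0.15 to 0.026 for Pdia6, and HS against Tu from -0.63 to 0.41 for Ero1l and -0.43 to 0.11 for Erp44.

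In 7 of 8 comparisons at least 1 pair of same-numbered samples did not correlate above 0.1 in its deviations from the group means. The labels do not say whether the numbers mark anything shared. The replicate block ended the calls of Txndc5 at Tu 405 min (adjusted p = 0.062) and Ero1l at Tu 45 min (adjusted p = 0.149), and turned Ero1l and Ero1lb at HS 135 min to -0.20 and -0.096. It left 0 of all genes called at HS 135 min and 21 at Tu 45 min. Ero1lb had 25 to 187 reads per sample outside Tu 405 min, the fewest of the members.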

Other observations

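Along the main axis of spread inside the groups, the members did not share a side. Ero1l (percentile 7.58 of all tested genes by weight), Pdia4 (18.8) and Ero1lb (18.8) had low weights, and Erp44 (78.2), Txndc11 (73.7) and Txndc5 (64.5) had high ones. The libraries with the highest scores were HS 135 min replicate 2, Tu 135 min replicate 1 and HS 45 min replicate 2, and those with the lowest were HS 45 min replicate 3 and HS 135 min replicate 1. The 3 libraries of Tu 405 min lay between -0.067 and 0.046 on this axis. Its part in the member values was not tested.

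Between heat shock and tunicamycin at 135 min, Hspa5 was higher under heat by 1.67 ± 0.21 on the log2 scale (edgeR's quasi-likelihood test, adjusted p = 0.0218), P4ha2 by 1.63 ± 0.28 (adjusted p = 0.0409) and Creld1 by 2.03 ± 0.36 (adjusted p = 0.0431). Among the UPR readouts, Sdf2l1 was higher by 2.30 ± 0.29 (adjusted p = 0.0224) and Herpud1 by 1.84 ± 0.22 (adjusted p = 0.0199). Without HS 135 min replicate 1 these 5 calls held, and without replicate 2 all but that of Creld1 held. Leaving out HS 135 min replicate 3 or any Tu 135 min library ended all 5, with adjusted p of up to 0.231. Against the control, HS 135 min gave 0.96 for Hspa5, 1.52 for P4ha2, 2.26 for Creld1, 1.56 for Sdf2l1 and 2.66 for Herpud1. With 1 library left out, Hspa5 gained 4.29 to 4.56 from Tu 135 to 405 min and 3.68 to 3.75 from the control. For Sdf2l1 these were 5.62 to 6.09 and 4.96 to 5.24. Tu 135 min thus lay below the control for these 2 genes, widening the difference. Herpud1 went the other way (3.82 to 4.12 and 4.66 to 4.83), while the ranges of Creld1 overlapped.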
